A study of Homo sapiens with 12 samples.

Results

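Transcripts of 35 genes of glycolysis and of the cellular response to low oxygen were followed in LM3 cells, which were derived from MDA-MB-231, a triple-negative human breast cancer line, and metastasize to the lung. The genes are listed by symbol, with no threshold on a measured value, though the list was drawn up with earlier results of these data known. Each of the 35 names matched 1 row of a count table of 57730 genes, and all 35 passed the filter on low counts that left 14706 genes for testing. The 12 poly(A)-selected RNA libraries form 4 groups of 3: cells with a hairpin against ACSL5 given palmitic acid (shACSL5_PA), the same knockdown cells without it (shACSL5), cells with a control hairpin given palmitic acid (shControl_PA), and control cells without it (shControl). ACSL5 joins coenzyme A to long-chain fatty acids such as palmitic acid, and the series asks about its role in breast tumours that spread to the lung. All groups grew in the same medium with fetal serum, and no label names a low-oxygen treatment. The palmitic acid dose, its duration and vehicle, the hairpin sequence and the number of clones are not given by the labels, so a vehicle cannot be told apart from palmitic acid, nor an off-target effect of the hairpin from loss of ACSL5.

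Glycolysis splits glucose to pyruvate in the cytosol, and lactate dehydrogenase turns pyruvate to lactate, which leaves the cell with a proton through monocarboxylate transporters. Cells short of oxygen raise many of these genes through HIF-1 and HIF-2, dimers of an oxygen-labile alpha subunit (HIF1A or EPAS1) with ARNT that bind a short DNA element near their targets. Prolyl hydroxylases of the EGLN family mark the alpha subunits for destruction when oxygen is present, and EGLN1 and EGLN3 are themselves HIF targets. Breast cancer cells often run glycolysis at a high rate with oxygen at hand, and MDA-MB-231 is a common model of this state.

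Library totals ran from 16788694 to 21814751 counts, and the 35 genes took 1.73% to 2.23% of each library. ACSL5 averaged 15.3 ± 2.19 CPM in shACSL5_PA and 191 ± 2.73 CPM in shControl_PA, and 11.2 ± 1.17 CPM in shACSL5 and 143 ± 1.69 CPM in shControl (SD, n = 3 each), in CPM, counts scaled to library size with TMM factors. The cells carried markers of the line: VIM, CD44, AXL, CAV1, FOSL1 and MSN summed to 5541 to 5812 CPM in shACSL5_PA libraries, 5657 to 5846 CPM in shACSL5, 6714 to 6935 CPM in shControl_PA and 7337 to 7605 CPM in shControl. Genes chosen as low or absent in the line were ESR1, PGR, ERBB2, CDH1, GATA3 and FOXA1. They summed to 76.1 to 83.5 CPM in shACSL5_PA, 69 to 79.2 CPM in shACSL5, 86.8 to 94 CPM in shControl_PA and 86.3 to 98.8 CPM in shControl. Most of this was ERBB2, at group means of 59.6 to 77.6 CPM, and GATA3 and FOXA1 averaged 6.31 to 8.01 CPM. Markers of other cells were mostly near 0. SFTPC and SCGB1A1 of lung epithelium, CD3E of T cells and COL1A2 of fibroblasts had no count in any library. The 4 immune genes summed to 45.2 to 53.8 CPM in shACSL5_PA, 47.2 to 52.8 CPM in shACSL5, 35.7 to 36.9 CPM in shControl_PA and 34.9 to 37.4 CPM in shControl, nearly all of it CD68. The 4 lung epithelial genes summed to 25.7 to 28.0 CPM in shACSL5_PA, 36.2 to 37.6 CPM in shACSL5, 36.2 to 40.9 CPM in shControl_PA and 42.7 to 44.8 CPM in shControl, nearly all of it NKX2-1. The 4 fibroblast genes stayed at or below 15.4 CPM and the 2 endothelial genes at or below 1.94 CPM in every library. Sums of both lists for the line, and of immune, endothelial and lung epithelial markers, differed between knockdown and control groups. Their part in the results below was not tested. RNA of whole cultures does not tell fewer cells with a transcript apart from less of it per cell. No label says whether the 3 libraries of a group came from separate cultures, so the p-values measure the spread between these libraries, which may be technical. Every adjusted p comes from edgeR's quasi-likelihood test, fitted across all 14706 genes and adjusted over all of them by Benjamini-Hochberg, and calls were made where it was under 0.05.

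HIF dimers bind a core element written here as ACGTG or GCGTG, and both were searched on both strands of RefSeq promoter windows (GRCh38.p14), which run from 250 bases before to 50 after a start. Windows of 31 of the 35 genes were used, 59 in all, and none for SLC2A3, NDRG1, BNIP3L and HILPDA. ACGTG was found in 25 of the 59 windows (42.4%), against 21.4% of all 35116 windows. GCGTG was found in 39% of the members' windows, against 36.5% of all windows. Counted by gene, 21 of the 31 genes (67.7%) had ACGTG in at least 1 window, against 24.9% of 27305 genes. The members have more windows a gene, 59 for 31 genes against 35116 for 27305, which raises the share counted by gene. The stretches around these letters are shown for 4 of the genes that rose most with palmitate in control cells, with the letters that match in capitals. ACGTG on the opposite strand reads CACGT, and CACGTG counts on both strands. A match is a description of these letters and not a mapped binding site.
SLC16A3: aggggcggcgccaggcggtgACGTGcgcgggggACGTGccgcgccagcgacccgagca
P4HA1: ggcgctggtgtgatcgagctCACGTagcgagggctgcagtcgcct
PFKFB4: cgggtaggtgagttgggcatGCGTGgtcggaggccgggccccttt
PDK1: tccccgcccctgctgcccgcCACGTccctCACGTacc
The SLC16A3 stretch (chr17:82228954-82229011, plus strand) lies from 88 to 31 bases before a start and holds ACGTG 2 times. The P4HA1 stretch (chr10:73096928-73096972, minus strand) lies from 106 to 62 bases before its start and holds 1 match on the opposite strand. In PFKFB4 (chr3:48556945-48556989, minus strand) the match is GCGTG, from a stretch 186 to 142 bases before the start. PDK1 (chr2:172556053-172556089, plus strand) holds 2 matches in the last 37 bases before a start.

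Levels were compared between genes per transcript length, as TPM, counts over exon length scaled to a common total, with exon lengths of GENCODE 29, which may differ from the authors' annotation. Some of the glycolytic enzymes and both lactate dehydrogenases were the most abundant. GAPDH, which oxidizes glyceraldehyde 3-phosphate, led with 5433 ± 166 TPM in shACSL5_PA, 4268 ± 115 TPM in shACSL5, 6940 ± 247 TPM in shControl_PA and 5816 ± 119 TPM in shControl. ENO1, PGAM1, ALDOA, TPI1, LDHA, PKM and LDHB each lay between 1119 and 2103 TPM in shControl. At the other end CA9, a surface carbonic anhydrase that is a classic mark of hypoxic tumours, had 10.3 ± 1.37 TPM in shACSL5_PA, 6.61 ± 1.4 TPM in shACSL5, 2.69 ± 0.845 TPM in shControl_PA and 1.99 ± 0.193 TPM in shControl. The regulatory kinase PDK1 and the small hypoxia target ANKRD37 also stood below 10 TPM in shControl, at 7.14 ± 1.05 and 9.59 ± 1.36 TPM. Between these ends, neighbours in the order were often closer than their SDs, as SLC16A3 (70.8 ± 3.05 TPM) and PFKM (70.2 ± 2.61 TPM) were in shControl. In GENCODE 29, 53.5% of ALDOA's and 33.4% of LDHB's exon bases also belong to other genes, so their levels per length depend on how shared reads were counted.

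**Figure D1:**
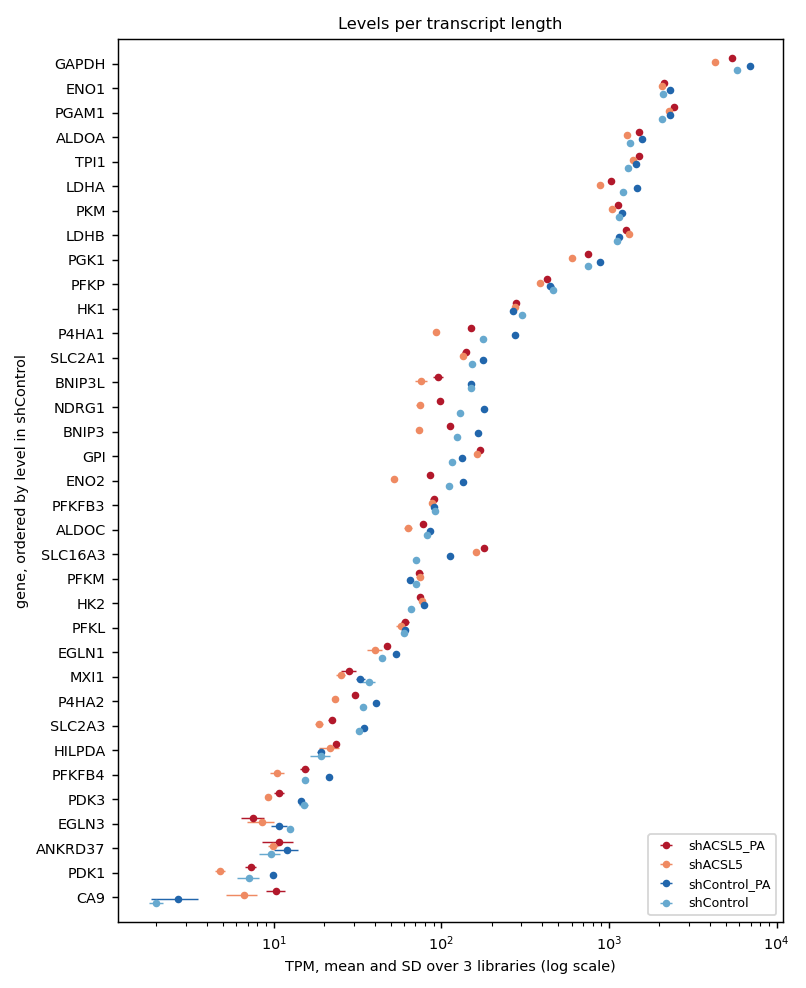
Level of each of the 35 genes in TPM (horizontal log axis) as the mean and SD of 3 libraries, coloured by group and ordered from the lowest in shControl at the bottom to the highest at the top. The genes span from 1.99 TPM for CA9 to 5816 TPM for GAPDH in shControl, and SLC16A3 and CA9 are the genes whose knockdown points lie farthest to the right of their controls.

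Without palmitate, the knockdown lowered 19 of the 35 genes (54.3%) and raised 8 (22.9%), while 8 did not pass the test. Over all genes tested, 32.6% were called lower and 29.7% higher. A change of at least 1.5-fold was called downward in 7 of the genes (20%, against 14.0% of all genes): ENO2, BNIP3L, P4HA1, NDRG1, SLC2A3, BNIP3 and PDK3. It was called upward in 2, CA9 and SLC16A3 (5.7%, against 9.62%). The median log2 change was -0.11 over the 35 genes and -0.02 over all genes tested.

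Under palmitate, the knockdown lowered 18 of the 35 (51.4%) and raised 9 (25.7%), against 26.1% and 24.4% of all genes. A change of at least 1.5-fold was called downward in 5 (14.3%, against 7.58% of all genes), namely NDRG1, P4HA1, BNIP3L, ENO2 and SLC2A3. It was called upward again in CA9 and SLC16A3 (5.7%, against 5.07%). The median was -0.12, against 0 over all genes. In 23 of the 35 genes (65.7%) the knockdown was called in both media and in the same direction, against 43.8% of all genes, and no member was called in opposite directions, against 0.354% of all genes.

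Palmitate moved the 35 genes almost only upward. In knockdown cells 23 of the 35 rose (65.7%, against 12.1% of all genes), and none was called lower, by edgeR, by DESeq2 or at an unadjusted p under 0.05 (9.78% of all genes were called lower). At least 1.5-fold rises were called for ENO2, P4HA1, CA9, BNIP3 and PDK1, which is 14.3%, against 1.33% of all genes, and 1.36% of all genes fell that far. In control cells 22 rose (62.9%, against 15.1% of all genes) and 1, HK1, fell (2.9%, against 13.5%). The median change was 0.20 in knockdown cells, where that of all genes was 0.01, and 0.27 in control cells, where that of all genes was 0. SLC16A3 and P4HA1 rose at least 1.5-fold in control cells (5.7%, against 1.31% of all genes), and no member fell that far (2.84% of all genes did). With library sizes alone in place of TMM factors, 35.9% of all calls with palmitate in control cells were upward, against 52.8% in the main fit. In 19 of the 35 genes (54.3%) palmitate was called upward in both cell types, against 4.47% of all genes. Across the 35 genes the fitted palmitate responses of knockdown and control cells had a Pearson r of 0.65, and 0.33 across all 14706 genes. These are descriptions over genes, which are not independent and share the libraries. Many of the 35 are abundant, and the genes tested were not matched to them in level.

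**Figure D2:**
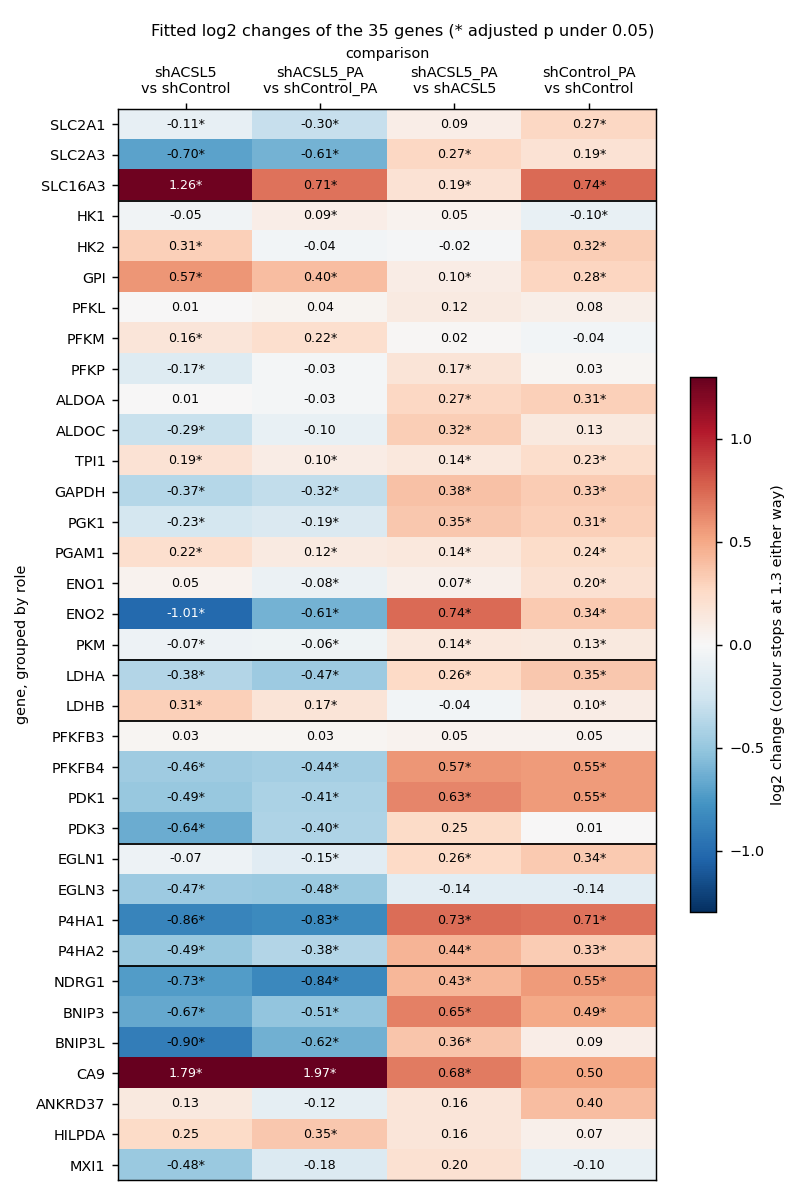
Fitted log2 change (number and colour) of each of the 35 genes, grouped by role, in the 4 comparisons, with a star where the adjusted p was under 0.05. The palmitate columns on the right hold no starred fall except HK1 in control cells at -0.10, while the knockdown columns on the left hold falls to -1.01 for ENO2 and rises to 1.97 for CA9.

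The membrane transporters moved apart. SLC16A3 encodes MCT4, which carries lactate out of glycolytic cells (GRCh38 chromosome 17, 82228397 to 82261129, plus strand). It had 353, 335 and 365 CPM in shACSL5 and 147, 140 and 153 CPM in shControl, and under palmitate 395, 389 and 419.6 CPM in shACSL5_PA and 246, 245 and 245 CPM in shControl_PA. The 4 groups did not overlap: both knockdown groups stood above both control groups, and in each cell type the palmitate libraries stood above the untreated ones. The knockdown changed SLC16A3 by 1.26 (SE 0.039, adjusted p = 2.11e-17) on the log2 scale without palmitate and by 0.71 (SE 0.038, adjusted p = 5.82e-13) with it. Palmitate raised it by 0.19 (SE 0.037) in knockdown and 0.74 (SE 0.039) in control cells. SLC2A1 encodes GLUT1, the basal glucose transporter. It had 156, 150.4 and 156 CPM in shACSL5 and 165, 168 and 169 CPM in shControl, and under palmitate 158, 164 and 170 CPM in shACSL5_PA and 198, 206 and 201 CPM in shControl_PA. It was highest in control cells with palmitate and lowest in shACSL5, and shACSL5_PA and shControl overlapped. Its knockdown changes were -0.11 (SE 0.036, adjusted p = 0.00903) and, under palmitate, -0.30 (SE 0.036, adjusted p = 2.52e-07). Palmitate raised it by 0.27 (SE 0.036) in control cells, while in knockdown cells the change was 0.09 (SE 0.036, adjusted p = 0.0985). SLC2A3, the high-affinity glucose transporter GLUT3, averaged 28 ± 1.71 CPM in shACSL5 and 45.6 ± 2.11 CPM in shControl, and under palmitate 33.9 ± 1.21 CPM in shACSL5_PA and 51.9 ± 1.61 CPM in shControl_PA. It fell with the knockdown by 0.70 and, under palmitate, by 0.61, the reverse of SLC16A3. Its rise with palmitate of 0.19 (SE 0.059, adjusted p = 0.02) in control cells did not hold with library sizes alone (adjusted p = 0.0816). It did not hold either without replicate 1 (0.0856) or 2 (0.0628) of shControl or without replicate 1 of shControl_PA (0.0882).

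Of the 15 glycolytic enzymes, the knockdown raised 5 and lowered 6 without palmitate and raised 5 and lowered 5 with it, while palmitate raised 11 in knockdown cells and 10 in control cells. The knockdown counts lie near the shares over all genes, 29.7% higher and 32.6% lower without palmitate and 24.4% and 26.1% with it, whereas palmitate raised 12.1% of all genes in knockdown and 15.1% in control cells. Those 15 enzymes, without the lactate dehydrogenases, together took 1.60 ± 0.0353% of counts in shACSL5_PA, 1.41 ± 0.032% in shACSL5, 1.71 ± 0.0272% in shControl_PA and 1.51 ± 0.0288% in shControl (SD, n = 3 each). The sum was thus higher with palmitate in both cell types and lower with the knockdown in both media, with no overlap between groups of a pair. GAPDH alone supplied between 21.9% and 29% of it. In CPM the sum averaged 14050 ± 354 in shACSL5 and 14750 ± 348 in shControl, and GAPDH 3096 and 3994. In CPM the fall of GAPDH was thus larger than that of the sum. In TPM the sum averaged 14070 in shACSL5 and 15800 in shControl, and GAPDH 4268 and 5816, so there its fall was smaller than that of the sum. Whether the other enzymes together stood higher or lower without palmitate thus depended on the scaling, and it was not tested. Under palmitate the sum averaged 16210 CPM in shACSL5_PA and 17360 CPM in shControl_PA, and GAPDH, at 4022 and 5005 CPM, made most of the difference.

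Among the enzymes of the first steps, GPI rose with the knockdown by most. GPI, which interconverts glucose and fructose 6-phosphate, had 434, 409 and 424 CPM in shACSL5 and 279.5, 285 and 287 CPM in shControl, and under palmitate 444, 441 and 474 CPM in shACSL5_PA and 339.8, 351 and 342 CPM in shControl_PA. All knockdown libraries lay above all control libraries, at log2 changes of 0.57 (SE 0.033, adjusted p = 6.63e-13) and, under palmitate, 0.40 (SE 0.032, adjusted p = 8.14e-10). Palmitate raised GPI by 0.28 (SE 0.033) in control cells. Its rise of 0.10 (SE 0.032, adjusted p = 0.0278) in knockdown cells was lost without shACSL5 replicate 2 (adjusted p = 0.118), shACSL5 replicate 3 (0.052) or shACSL5_PA replicate 3 (0.15), with library sizes alone (0.0737) and in a fit of the 2 groups alone (0.0764). The hexokinases phosphorylate glucose and so trap it in the cell. HK2, the isozyme that many tumours and hypoxic cells raise, had 112, 115 and 113 CPM in shACSL5 and 89.4, 92.3 and 93.9 CPM in shControl, and under palmitate 112, 113 and 111 CPM in shACSL5_PA and 113, 113 and 118 CPM in shControl_PA. The 3 shControl libraries were the low ones and the other 9 overlapped. HK2 rose by 0.31 (SE 0.039, adjusted p = 3.8e-07) with the knockdown and by 0.32 (SE 0.039, adjusted p = 1.39e-06) with palmitate in control cells, while it stood at -0.04 (SE 0.038, adjusted p = 0.471) with the knockdown under palmitate and at -0.02 (SE 0.038, adjusted p = 0.809) with palmitate in knockdown cells. HK1, the housekeeping isozyme, had 435, 443 and 436 CPM in shACSL5_PA and 439.8, 409 and 424 CPM in shACSL5, and 413, 416 and 402 CPM in shControl_PA and 430.5, 440.4 and 449.7 CPM in shControl. The shControl_PA libraries were low and overlapped only with shACSL5. HK1 was the only member called lower with palmitate, at -0.10 (SE 0.03, adjusted p = 0.0143) in control cells, but the call did not hold without shControl replicate 3 (adjusted p = 0.0748) or without shControl_PA replicate 3 (0.0693). With the knockdown under palmitate HK1 was called higher, at 0.09 (SE 0.03, adjusted p = 0.0126). That call was lost without shControl_PA replicate 3 (adjusted p = 0.062) or shACSL5_PA replicate 2 (0.0519).

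Among the phosphofructokinases, which catalyse the main rate-setting step, PFKP made up most of the reads, at 65.6 ± 0.39% in shACSL5_PA, 64.1 ± 0.49% in shACSL5, 68 ± 1.31% in shControl_PA and 68 ± 0.999% in shControl. PFKP had 454, 446 and 476 CPM in shACSL5 and 512, 512 and 519.9 CPM in shControl, and under palmitate 505, 502 and 536 CPM in shACSL5_PA and 539, 533 and 500.4 CPM in shControl_PA. The shACSL5 libraries were the 3 lowest. PFKP fell by 0.17 (adjusted p = 0.000152) with the knockdown and rose by 0.17 (SE 0.033) with palmitate in knockdown cells. PFKM rose with the knockdown in both media, by 0.16 (SE 0.049) and, under palmitate, 0.22 (SE 0.049). PFKL was called in none of the 4 comparisons, with log2 changes from 0.01 to 0.12. The aldolase ALDOA rose with palmitate by 0.27 (SE 0.032) in knockdown and 0.31 (SE 0.032) in control cells and stood at 0.01 (SE 0.032, adjusted p = 0.791) with the knockdown. ALDOC, the scarcer aldolase, changed by -0.29 (SE 0.055) with the knockdown and rose by 0.32 (SE 0.055) with palmitate in knockdown cells. The rest of its changes, -0.10 with the knockdown under palmitate and 0.13 with palmitate in control cells, did not pass the test.

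The steps from triose phosphate to pyruvate rose together with palmitate. TPI1, GAPDH, PGK1, PGAM1, ENO1, ENO2 and PKM were each called higher in both cell types, with log2 changes from 0.07 for ENO1 to 0.74 for ENO2 in knockdown cells and from 0.13 for PKM to 0.34 for ENO2 in control cells. The smallest of these, ENO1 in knockdown cells (adjusted p = 0.0485), was lost without shACSL5 replicate 1 (adjusted p = 0.0979), shACSL5 replicate 2 (0.195), shACSL5_PA replicate 2 (0.0588) or shACSL5_PA replicate 3 (0.217). It was lost as well with DESeq2 size factors (0.0757), with DESeq2 (0.0793), with library sizes alone (0.154) and in a fit of the 2 groups alone (0.101). Their knockdown changes differed in direction. GAPDH averaged 3096 ± 97.6 CPM in shACSL5 and 3994 ± 110 CPM in shControl, and under palmitate 4022 ± 116 CPM in shACSL5_PA and 5005 ± 131 CPM in shControl_PA, a fall with the knockdown of 0.37 without and 0.32 with palmitate. PGK1, the first step that yields ATP, fell by 0.23 and, under palmitate, 0.19. TPI1, the triose phosphate isomerase, rose by 0.19 and, under palmitate, 0.10. PGAM1, the phosphoglycerate mutase, had 1433, 1394 and 1433 CPM in shACSL5 and 1187, 1235 and 1244 CPM in shControl, and under palmitate 1558, 1566 and 1586 CPM in shACSL5_PA and 1444, 1441 and 1458 CPM in shControl_PA. It rose with the knockdown by 0.22 without and 0.12 with palmitate. PKM, whose product pyruvate ends the pathway, moved by -0.07 (SE 0.021, adjusted p = 0.00437) and -0.06 (SE 0.021, adjusted p = 0.0186). The second of these calls was lost without shControl_PA replicate 2 (adjusted p = 0.0949), shACSL5_PA replicate 1 (0.0813) or shACSL5_PA replicate 2 (0.0704), with no low-count filter (0.0649) and in a fit of the 2 groups alone (0.0715).

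ENO2, known as the neuronal enolase and also a hypoxia target, was the glycolytic enzyme that fell most with the knockdown (GRCh38 chromosome 12, 6913745 to 6923698, plus strand). It had 55.2, 51.7 and 56.5 CPM in shACSL5 and 106, 109.7 and 114 CPM in shControl, and under palmitate 93.4, 90.6 and 89.7 CPM in shACSL5_PA and 137, 139.7 and 140 CPM in shControl_PA. The 4 groups did not overlap, and shACSL5 was the lowest. The knockdown changed it by -1.01 (SE 0.045, adjusted p = 9.13e-15) without and -0.61 (SE 0.042, adjusted p = 5.1e-11) with palmitate. Palmitate raised it by 0.74 (SE 0.045, adjusted p = 5.3e-11) in knockdown cells and 0.34 (SE 0.042, adjusted p = 1.92e-06) in control cells. Of the reads of both enolases ENO2 took 3.19 ± 0.145% in shACSL5_PA, 2.02 ± 0.041% in shACSL5, 4.51 ± 0.115% in shControl_PA and 4.12 ± 0.0681% in shControl, a share that followed ENO2 itself. ENO1 had 2654, 2575 and 2711 CPM in shACSL5 and 2478, 2586 and 2602 CPM in shControl, and under palmitate 2721, 2738 and 2867 CPM in shACSL5_PA and 2966, 2980 and 2877 CPM in shControl_PA. The shControl_PA libraries were the highest, the shACSL5_PA libraries came next, and shACSL5 and shControl overlapped. With the knockdown under palmitate ENO1 fell by 0.08 (adjusted p = 0.00624), a call lost without replicate 2 of shControl_PA (0.0504). Without palmitate it stood at 0.05 (SE 0.024, adjusted p = 0.0753), a change called without replicate 2 of shACSL5 (0.0259), with DESeq2 size factors (0.0194), with DESeq2 (0.0202) and in a fit of the 2 groups alone (0.00722).

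The lactate dehydrogenase pair moved in opposite directions with the knockdown. LDHA favours the making of lactate from pyruvate, and had 1331, 1321 and 1346 CPM in shACSL5 and 1707, 1745 and 1746 CPM in shControl, and under palmitate 1583, 1593 and 1601 CPM in shACSL5_PA and 2217, 2192 and 2227 CPM in shControl_PA. No 2 groups overlapped. Its log2 changes were -0.38 (SE 0.02, adjusted p = 1.35e-13) and -0.47 (SE 0.02, adjusted p = 9.29e-15) with the knockdown, without and with palmitate. Palmitate raised LDHA by 0.26 (SE 0.02) in knockdown and 0.35 (SE 0.02) in control cells. LDHB favours the reverse reaction, and had 958, 963 and 943 CPM in shACSL5 and 764, 768 and 774 CPM in shControl, and under palmitate 930.3, 932 and 933 CPM in shACSL5_PA and 839, 816 and 822 CPM in shControl_PA. Every knockdown library lay above every control library. LDHB rose by 0.31 (SE 0.023, adjusted p = 3.85e-11) without and 0.17 (SE 0.023, adjusted p = 9.31e-07) with palmitate. With palmitate it rose by 0.10 (SE 0.023) in control cells, a call lost with library sizes alone (adjusted p = 0.0631), and stood at -0.04 (SE 0.023, adjusted p = 0.296) in knockdown cells. LDHA's share of the reads of the pair was 63.1 ± 0.101% in shACSL5_PA, 58.3 ± 0.486% in shACSL5, 72.8 ± 0.248% in shControl_PA and 69.3 ± 0.178% in shControl (SD, n = 3 each), a share of reads and not of protein.

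**Figure D3:**
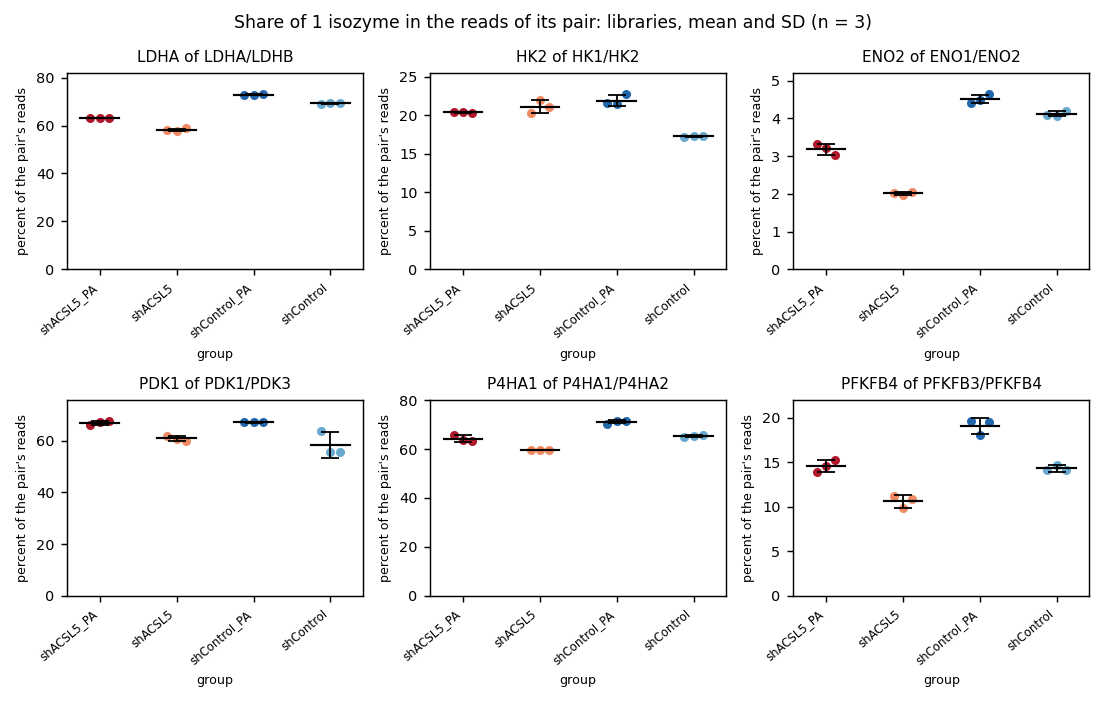
Share of 1 isozyme in the reads of its pair, in percent, for 6 pairs, with points for libraries and bars for the mean and SD of 3. LDHA has its lowest share in shACSL5 libraries, at a mean of 58.3%, and its highest in shControl_PA, at 72.8%, while HK2 is lowest in shControl, at 17.3%.

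Of the 4 regulatory kinases, PDK1, PDK3, PFKFB3 and PFKFB4, 3 fell with the knockdown in each medium, and 2 rose with palmitate in each cell type. Over all genes 32.6% fell with the knockdown without and 26.1% with palmitate, and 12.1% rose with palmitate in knockdown and 15.1% in control cells. PDK1 phosphorylates pyruvate dehydrogenase and so keeps pyruvate out of the mitochondrion. It had 18.1, 17.9 and 16.2 CPM in shACSL5 and 28.4, 22.4 and 22.5 CPM in shControl, and under palmitate 25.6, 29 and 26.3 CPM in shACSL5_PA and 36.6, 36.2 and 34.6 CPM in shControl_PA. Replicate 1 of shControl lay above the other two, and still below every shControl_PA library. The knockdown lowered PDK1 by 0.49 (SE 0.09) without and 0.41 (SE 0.082) with palmitate, and palmitate raised it by 0.63 (SE 0.088, adjusted p = 1.76e-05) in knockdown and 0.55 (SE 0.084, adjusted p = 3.02e-05) in control cells. PDK3, a sister kinase, fell with the knockdown by 0.64 and 0.40, without and with palmitate, and its palmitate changes of 0.25 (SE 0.093, adjusted p = 0.0567) in knockdown cells and 0.01 (SE 0.088, adjusted p = 0.971) in control cells did not pass the test. PFKFB4 makes fructose 2,6-bisphosphate, the activator of phosphofructokinase. It had 16.8, 13.9 and 16.2 CPM in shACSL5 and 20.6, 22.2 and 21.8 CPM in shControl, and under palmitate 23, 22 and 24.8 CPM in shACSL5_PA and 32.8, 30.1 and 31.8 CPM in shControl_PA. It was lowest in all 3 shACSL5 libraries and highest in all 3 shControl_PA libraries. Palmitate raised it by 0.57 (SE 0.083, adjusted p = 2.96e-05) in knockdown and 0.55 (SE 0.079, adjusted p = 1.43e-05) in control cells, and the knockdown lowered it by 0.46 and 0.44. Its relative PFKFB3 was called in none of the 4 comparisons, with log2 changes from 0.03 to 0.05.

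Of the 4 prolyl hydroxylases, the knockdown lowered 3 without palmitate and 4 with it, and palmitate raised 3 in each cell type. The shares of all genes were 32.6% lower with the knockdown without and 26.1% with palmitate, and 12.1% higher with palmitate in knockdown and 15.1% in control cells. P4HA1 is the catalytic subunit of collagen prolyl 4-hydroxylase, which stabilizes the collagen helix (GRCh38 chromosome 10, 73007217 to 73096974, minus strand). It had 68.4, 72.1 and 70.2 CPM in shACSL5 and 125, 129 and 127 CPM in shControl, and under palmitate 119.5, 117 and 112 CPM in shACSL5_PA and 207, 210.1 and 205 CPM in shControl_PA. The groups did not overlap, and the shACSL5_PA libraries lay just below those of shControl. P4HA1 changed by -0.86 (SE 0.04, adjusted p = 1.94e-14) with the knockdown and -0.83 (SE 0.037, adjusted p = 2.71e-14) with the knockdown under palmitate. It rose with palmitate by 0.73 (SE 0.04, adjusted p = 1.02e-11) in knockdown and 0.71 (SE 0.037, adjusted p = 2.08e-12) in control cells. P4HA2, its paralogue, fell with the knockdown by 0.49 without and 0.38 with palmitate. It rose with palmitate by 0.44 in knockdown and 0.33 in control cells. Of the HIF hydroxylases, EGLN3 fell with the knockdown by 0.47 without and 0.48 with palmitate. Its palmitate changes of -0.14 (SE 0.12, adjusted p = 0.452) in knockdown and -0.14 (SE 0.12, adjusted p = 0.415) in control cells did not pass the test. EGLN1 rose with palmitate in both cell types, by 0.26 (SE 0.055) in knockdown and 0.34 (SE 0.055) in control cells. Its knockdown change of -0.15 (SE 0.054, adjusted p = 0.0293) under palmitate was lost without shControl_PA replicate 1 (adjusted p = 0.0613), 2 (0.0602) or 3 (0.0785) and without shACSL5_PA replicate 1 (0.0905) or 2 (0.0585).

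Of the 7 other hypoxia targets, 4 fell and 1 rose with the knockdown without palmitate, and 3 fell and 2 rose with it under palmitate. Of all genes 32.6% fell and 29.7% rose without palmitate, and 26.1% fell and 24.4% rose with it. NDRG1, a stress gene that low oxygen raises in many cells, had 168, 178 and 186 CPM in shACSL5 and 286, 293 and 301 CPM in shControl, and under palmitate 242, 231 and 245 CPM in shACSL5_PA and 436, 424 and 425 CPM in shControl_PA. Control cells with palmitate were the highest, and all 4 groups were apart. The knockdown changed NDRG1 by -0.73 (SE 0.037, adjusted p = 9.82e-14) without and -0.84 (SE 0.036, adjusted p = 1.58e-14) with palmitate, and palmitate changed it by 0.43 (SE 0.037, adjusted p = 2.05e-08) in knockdown and 0.55 (SE 0.036, adjusted p = 1.27e-10) in control cells. BNIP3 and BNIP3L encode receptors that mark mitochondria for autophagy. BNIP3 had 91.5, 98.3 and 97 CPM in shACSL5 and 151, 151 and 155 CPM in shControl, and under palmitate 153, 148 and 149 CPM in shACSL5_PA and 208, 216 and 217 CPM in shControl_PA. The shACSL5_PA and shControl libraries overlapped, and the palmitate changes were 0.65 (SE 0.038, adjusted p = 3.38e-11) in knockdown and 0.49 (SE 0.036, adjusted p = 9.61e-10) in control cells. The knockdown lowered BNIP3 by 0.67 without and 0.51 with palmitate. BNIP3L had 83.3, 83.5 and 72.6 CPM in shACSL5 and 152, 147 and 147 CPM in shControl, and under palmitate 105, 107 and 95.2 CPM in shACSL5_PA and 153, 162 and 158 CPM in shControl_PA. All knockdown libraries were below all control libraries. The knockdown changed BNIP3L by -0.90 (SE 0.051, adjusted p = 6.53e-13) without and -0.62 (SE 0.05, adjusted p = 5.78e-10) with palmitate, and palmitate raised it in knockdown cells by 0.36 (SE 0.052). Of BNIP3L's exon bases 8.96% also belong to PNMA2 and a pseudogene on the opposite strand, and PNMA2 stood at 13.1 ± 1.75 CPM in shACSL5 and 53.5 ± 2.23 CPM in shControl. The strand setting of the counting is not given, so such reads cannot be told apart.

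**Figure D4:**
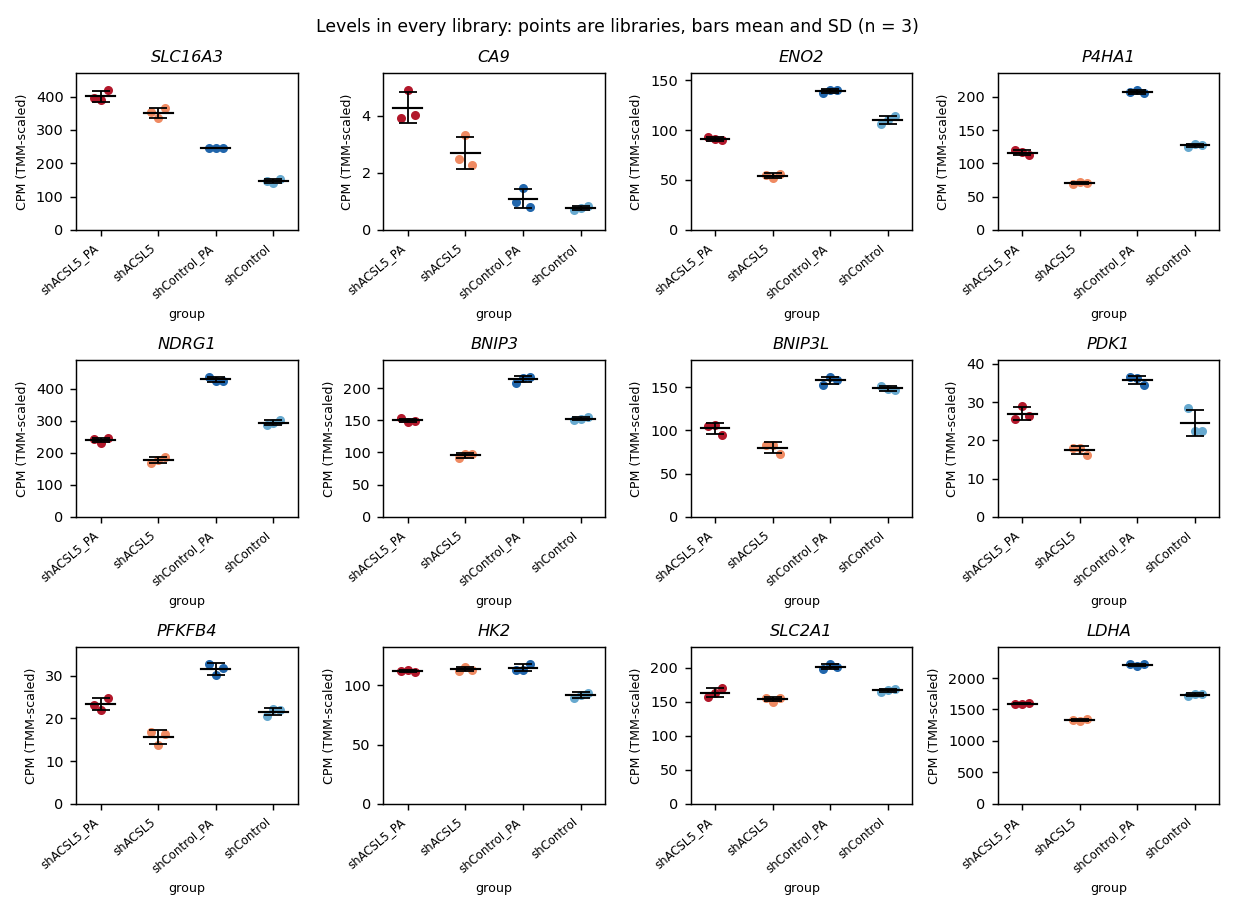
CPM of 12 of the genes in every library, 1 panel a gene, with points for libraries, bars for the mean and SD of 3, and each vertical axis starting at 0. SLC16A3 and CA9 are highest in the knockdown groups on the left, while ENO2, P4HA1, NDRG1, BNIP3, PDK1, PFKFB4 and LDHA peak in shControl_PA and are lowest in shACSL5.

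CA9 had 2.47, 3.32 and 2.27 CPM in shACSL5 and 0.684, 0.768 and 0.842 CPM in shControl, and under palmitate 3.92, 4.9 and 4.03 CPM in shACSL5_PA and 0.984, 1.46 and 0.818 CPM in shControl_PA. Each knockdown library was above each control library, at a level that rests on 43 to 97 raw counts in knockdown libraries and 12 to 26 in control libraries. The knockdown raised CA9 by 1.79 (SE 0.29, adjusted p = 1.15e-05) without palmitate and 1.97 (SE 0.27, adjusted p = 1.76e-06) with it. In GENCODE 29 the gene (GRCh38 chromosome 9, 35673856 to 35681159, plus strand) shares 38.5% of its exon bases with ARHGEF39 on the opposite strand. ARHGEF39 changed by 0.38 (adjusted p = 0.0226) and 0.12 (adjusted p = 0.503) in the same comparisons. It averaged 6.89 ± 0.712 CPM in shACSL5 and 5.29 ± 0.0745 CPM in shControl, above CA9, and its part in the CA9 counts was not tested. The rise of CA9 with palmitate in knockdown cells, 0.68 (SE 0.24, adjusted p = 0.0458), was lost without shACSL5 replicate 1 (adjusted p = 0.13), shACSL5 replicate 3 (0.152), or shACSL5_PA replicate 1 (0.0637), 2 (0.18) or 3 (0.0636). It was lost too with library sizes alone (0.0536), with no low-count filter (0.0552) and with DESeq2 (0.0567). In control cells its palmitate change was 0.50 (SE 0.32, adjusted p = 0.272). MXI1, a repressor of MYC-driven transcription, fell with the knockdown without palmitate, at -0.48 (SE 0.084), and stood at -0.18 (SE 0.083, adjusted p = 0.0721) under it. HILPDA, which restrains the breakdown of lipid droplets, was called only in the knockdown under palmitate, at 0.35 (SE 0.12, adjusted p = 0.0198). That call was lost without shControl_PA replicate 1 (adjusted p = 0.057), shControl_PA replicate 3 (0.0564) or shACSL5_PA replicate 1 (0.0637). ANKRD37 was not called in any of the 4 comparisons, with changes from -0.12 to 0.40, and 35.2% of its exon bases lie within UFSP2 on the opposite strand.

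Whether the palmitate response itself differed with ACSL5 was tested as the interaction, the response of knockdown cells less that of control cells. Of the 35 genes 5 (14.3%) were called higher and 8 (22.9%) lower, against 7.15% and 7.39% of all genes. With library sizes alone, 59.9% of all interaction calls were upward, against 49.2% in the main fit. The response of SLC16A3 was smaller in knockdown cells by 0.55 (SE 0.054, adjusted p = 4.69e-07). HK2 differed by -0.34 (SE 0.054, adjusted p = 0.000183), SLC2A1 by -0.19 (SE 0.051, adjusted p = 0.0145), GPI by -0.18 (SE 0.046, adjusted p = 0.0108), LDHB by -0.14 (SE 0.032, adjusted p = 0.00487) and ENO1 by -0.13 (SE 0.034, adjusted p = 0.0102). All 6 were called higher with palmitate in control cells, and 3 of them, SLC16A3, GPI and ENO1, in knockdown cells. ENO2 went the other way, with a response larger by 0.41 (SE 0.061, adjusted p = 9.79e-05) in knockdown cells, as did BNIP3L at 0.28 (SE 0.071, adjusted p = 0.0109). PNMA2, whose exons overlap those of BNIP3L, had an interaction of 0.71 (SE 0.12, adjusted p = 0.000364). Its part in the BNIP3L value was not tested. For P4HA1, PDK1 and PFKFB4, which rose with palmitate in both cell types, the interaction was not called, and its 95% interval was -0.10 to 0.15 for P4HA1, -0.20 to 0.36 for PDK1 and -0.24 to 0.28 for PFKFB4 on the log2 scale.

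The other interaction calls were small. SLC2A1 was lost without shControl_PA replicate 2 (adjusted p = 0.0516). The LDHA call, at -0.10 (SE 0.028, adjusted p = 0.0225), did not hold without replicate 1 of shControl (0.0534) or of shControl_PA (0.0556), with library sizes alone (0.0762) and with no low-count filter (0.113). HK1, at 0.15 (SE 0.043, adjusted p = 0.0226), was lost without shControl replicate 2 (0.0503) or 3 (0.0609), shACSL5 replicate 2 (0.06), shControl_PA replicate 3 (0.0565) or shACSL5_PA replicate 2 (0.0603). PFKP, at 0.14 (SE 0.047, adjusted p = 0.0495), kept its call only without shACSL5 replicate 3, shControl_PA replicate 1 or shACSL5_PA replicate 1 among the 12 libraries left out in turn, and its adjusted p reached 0.138. PGAM1, at -0.10 (SE 0.032, adjusted p = 0.0369), kept it only without shControl replicate 3, shACSL5 replicate 2 or shACSL5_PA replicate 3, with an adjusted p of up to 0.101 without the others. BNIP3, at 0.16 (SE 0.052, adjusted p = 0.0428), kept it only without shACSL5 replicate 2 or 3, with an adjusted p of up to 0.147 without the others.

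**Figure D5:**
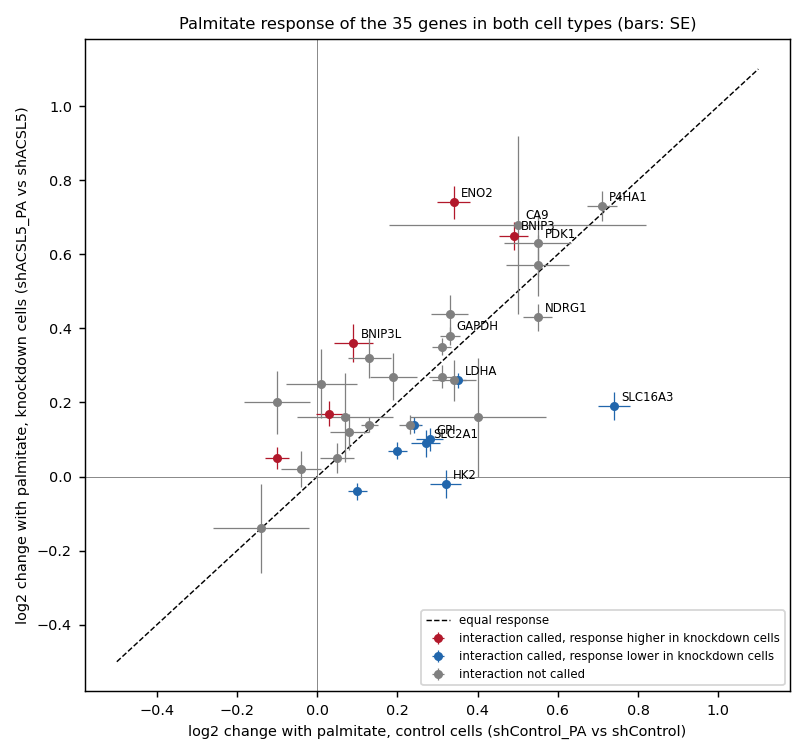
Log2 change with palmitate in knockdown cells (vertical) against that in control cells (horizontal) for the 35 genes, with SE bars, coloured by the interaction call, and a dashed line of equal response. SLC16A3 (0.19 against 0.74) and HK2 (-0.02 against 0.32) lie below the line and ENO2 (0.74 against 0.34) above it, while P4HA1 (0.73 against 0.71) lies on it.

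The transcripts of both HIF alpha subunits fell with the knockdown. HIF1A had 347, 337 and 332 CPM in shACSL5 and 574, 544 and 551 CPM in shControl, and under palmitate 314, 326 and 307 CPM in shACSL5_PA and 478, 471 and 465 CPM in shControl_PA. It changed by -0.72 (SE 0.031, adjusted p = 5.92e-15) without and -0.58 (SE 0.031, adjusted p = 7.65e-13) with palmitate. Palmitate lowered HIF1A by 0.24 (adjusted p = 3.42e-06) in control cells and by 0.10 (adjusted p = 0.024) in knockdown cells. EPAS1, which encodes the alpha subunit of HIF-2, had 13.6, 14.2 and 13.9 CPM in shACSL5 and 28.6, 29.6 and 30.8 CPM in shControl, and under palmitate 21.5, 23 and 25 CPM in shACSL5_PA and 29.6, 28.2 and 27.4 CPM in shControl_PA. It fell with the knockdown by 1.1 without and 0.29 with palmitate, and rose by 0.74 (SE 0.078) with palmitate in knockdown cells. In control cells the palmitate change of EPAS1 was -0.06 (SE 0.072, adjusted p = 0.546), and the interaction was 0.80 (SE 0.11, adjusted p = 1.9e-05). HIF activity is set largely by protein stability, which these libraries do not measure. ARNT, the partner subunit, averaged 39.6 ± 2.84 CPM in shACSL5 and 50.6 ± 2.49 CPM in shControl. Under palmitate it averaged 40.2 ± 1.61 CPM in shACSL5_PA and 48 ± 1.96 CPM in shControl_PA. All its knockdown libraries lay below all its control libraries. The scarcer ARNT2, at group means of 5.97 to 15.1 CPM, rose with the knockdown by 0.98 without and 1.08 with palmitate. The coactivator CREBBP rose by 0.74 without and 0.49 with it. Of 15 HIF regulators tested, the knockdown without palmitate raised 7 and lowered 4, against 29.7% and 32.6% of all genes. Palmitate lowered 3 of them in control cells, where 13.5% of all genes were lower. In knockdown cells palmitate raised 1 and lowered 5, against 12.1% and 9.78% of all genes.

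A further list of 39 hypoxia targets outside the 35, of which 35 were tested, was counted in the same way. The knockdown lowered 21 and raised 8 without palmitate, and lowered 21 and raised 6 with it. Palmitate raised 19 and lowered 3 in knockdown cells and raised 18 and lowered 2 in control cells. Over all genes the knockdown lowered 32.6% and raised 29.7% without palmitate and lowered 26.1% and raised 24.4% with it, and palmitate raised 12.1% and lowered 9.78% in knockdown cells and raised 15.1% and lowered 13.5% in control cells. The median log2 change of the list was -0.34 with the knockdown and -0.26 with it under palmitate, and 0.22 and 0.25 with palmitate in knockdown and in control cells, while that of all genes lay between -0.02 and 0.01. BHLHE40, a transcriptional repressor, fell by 2.23 with the knockdown and by 1.09 under palmitate, whereas ADM, the peptide adrenomedullin, rose by 2.85 without and 1.60 with palmitate. Both also differed in their palmitate response, with interactions of 1.14 (SE 0.078, adjusted p = 1.76e-09) for BHLHE40 and -1.25 (SE 0.18, adjusted p = 5.32e-05) for ADM. STC1, a secreted glycoprotein, had 68, 66.8 and 64 CPM in shACSL5_PA and 26.8, 27.4 and 28.3 CPM in shACSL5, and 80.9, 80.9 and 76.4 CPM in shControl_PA and 32.2, 38.9 and 36.9 CPM in shControl. Its rise with palmitate was 1.27 (SE 0.062) in knockdown and 1.14 (SE 0.06) in control cells. ANGPTL4, which is also a target of fatty acid receptors of the PPAR family, rose by 3.07 (SE 0.15) in knockdown and 3.00 (SE 0.15) in control cells.

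Neighbouring pathways were followed by lists of the same making, whose counts stand against the same shares of all genes: 32.6% lower and 29.7% higher with the knockdown without palmitate, 26.1% and 24.4% under it, 12.1% higher and 9.78% lower with palmitate in knockdown cells, and 15.1% and 13.5% in control cells. Of 13 tested genes that govern entry of pyruvate into mitochondria, 4 fell and 3 rose with the knockdown, and palmitate raised 3 and lowered 3 in knockdown cells. PDK4, the dehydrogenase kinase that fatty acids induce, had 17.5, 16.6 and 18.1 CPM in shACSL5_PA and 2.38, 2.72 and 1.9 CPM in shACSL5, and 22.5, 23.8 and 22.2 CPM in shControl_PA and 6.55, 6.64 and 6.84 CPM in shControl. Its palmitate change was 2.90 (SE 0.12) in knockdown cells and 1.77 (SE 0.1) in control cells, with an interaction of 1.13 (SE 0.17, adjusted p = 6.55e-05). Glycogen genes fell with the knockdown in 9 of 11 cases without palmitate and 8 of 11 with it, among them PHKB, a phosphorylase kinase subunit, at -0.87 (SE 0.047) without palmitate. In knockdown cells palmitate raised 6 of the 11. Of 8 pentose phosphate genes, the knockdown without palmitate raised 2, with RPIA at 1.18 (SE 0.062), and lowered 2. Palmitate in control cells raised 4 of them and lowered 2. Among 15 tested glycolytic genes outside the 35 the knockdown without palmitate lowered 4 and raised 1, and MINPP1 fell by 0.77 and BPGM, which makes 2,3-bisphosphoglycerate, by 0.65. Of 11 genes of the hexosamine, serine and glycerol 3-phosphate branches, the knockdown lowered 6 and raised 2 without palmitate and lowered 8 and raised 3 with it, with GPD2, a mitochondrial glycerol 3-phosphate dehydrogenase, at -0.88 (SE 0.048) without palmitate. Of 2 gluconeogenic genes tested, PCK2, the mitochondrial phosphoenolpyruvate carboxykinase, stood at -0.60 (SE 0.059) and G6PC3, a glucose 6-phosphatase, at 0.35 (SE 0.06) with the knockdown without palmitate. Among 10 upstream regulators of glycolysis the knockdown without palmitate raised 4 and lowered 4. MYC averaged 228 ± 6.46 CPM in shACSL5 and 167 ± 4.4 CPM in shControl, and under palmitate 183 ± 1.02 CPM in shACSL5_PA and 158 ± 1.97 CPM in shControl_PA. It fell with palmitate in knockdown cells, by 0.31 (adjusted p = 5.78e-07), where it still lay above all control libraries.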

How the data were processed

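Gene-level read counts were deposited by the authors as 1 table of whole numbers for all 12 libraries, and no column lacked a sample. Per the submitters' processing notes, reads were trimmed with fastp 0.22.0, aligned with HISAT2 2.1.0 to GRCh38 and counted with featureCounts. The annotation release and the strand setting are not given in the sources that were used. Library totals ran from 16788694 to 21814751 counts, and the TMM-scaled CPM and the TPM were computed here from these counts.

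All 12 libraries were fitted together with edgeR 4.0.16 in R 4.3.3, with TMM factors, filterByExpr, 1 mean a group and the quasi-likelihood test, 2-sided, with Benjamini-Hochberg adjustment over 14706 genes. SEs were taken from the log2 change and its F statistic. Calls had an adjusted p under 0.05, and a second rule added a change of at least 1.5-fold. The procedure was tested on simulated counts before use. Isozyme shares are percentages of read counts and were not tested. With 3 libraries against 3, an exact permutation test cannot go below p = 0.1, so none was used.

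The members, the other gene lists and the tests were chosen with earlier results of these data known. Values per library are given, per comparison, for the called members with the 6 largest absolute changes at a mean of at least 1 CPM, for every member called in the interaction, and for CA9, SLC2A1, HK2, LDHA, PDK1 and NDRG1. From the other lists, up to 3 called genes a comparison with a mean of at least 5 CPM could be named, and ARNT is given beside ARNT2. Alternatives were DESeq2 1.42.0, its size factors in edgeR, library sizes alone, no low-count filter, the replicate number as a block, the 2 compared groups alone, and each library left out in turn. Pairs of replicates differed by more than counting noise, with a chi-square of 2.23 to 4.37 per gene. This does not show whether they came from separate cultures, since separate preparations of 1 culture can differ as much. Each library was counted as a sample. Same-numbered libraries of compared groups had correlations of -0.04 to 0.08 in their deviations from the group means, so they were not treated as pairs.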

Additional observations from a re-analysis of the deposited data

Results flagged for a closer look

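The palmitate response of 13 of the 35 genes differed between knockdown and control cells in the interaction test, and each is given as the log2 palmitate change of knockdown cells less that of control cells, with 3 libraries a group. It was -0.55 for SLC16A3, -0.34 for HK2, -0.18 for GPI, -0.14 for LDHB, -0.13 for ENO1, 0.41 for ENO2 and 0.28 for BNIP3L, and each of these was called in 17 of 17 alternatives. For BNIP3L the exons overlap with those of PNMA2, whose interaction was 0.71. SLC2A1 at -0.19 was called in 16, LDHA at -0.10 in 13 and HK1 at 0.15 in 12 of the 17. PFKP at 0.14 and PGAM1 at -0.10 were called in 6, and BNIP3 at 0.16 in 4. Over all genes, 7.15% were called higher and 7.39% lower in this test.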

How the results depend on the processing

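Of the members' log2 changes under the alternatives, 2118 kept their direction and their side of the threshold, 89 lost a call and 25 gained one. Another 43 changed sign, none of them called in either fit, and no called change reversed. The count of members called higher in the interaction was 5, and 3 with DESeq2 size factors and 3 with DESeq2. It ranged from 2 to 5 with 1 library left out. The count of members lower with palmitate in control cells, 1, ranged from 0 to 1, with 0 without shControl replicate 3 or shControl_PA replicate 3. Another scaling moved the median of all genes by at most -0.05 on the log2 scale. With library sizes alone, the share of calls that were upward was 35.9% for palmitate in control cells, against 52.8% in the fit with TMM factors, and 59.9% for the interaction, against 49.2%.

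With the replicate block, 9197 genes were called for the knockdown without palmitate, against 9164 without the block. The counts were 7489 against 7432 for the knockdown under palmitate, 3363 against 3216 for palmitate in knockdown cells, 4302 against 4217 for palmitate in control cells and 2261 against 2139 for the interaction. Every count of members was equal with and without the block. More genes were thus called with the block in each comparison, and the reason was not tested. Correlations of -0.04 to 0.08 gave no sign of pairing by number, but they do not settle whether libraries were handled in pairs. Depth limits CA9, with 12 to 97 counts a library.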
